A study of Mus musculus with 2 samples.

Results

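Neurogenic genes were followed across the cell types of the adult mouse retina: the 3 SoxC genes *Sox4*, *Sox11* and *Sox12*, the transcription factors *Neurog2*, *Hes6* and *Insm1*, and *Dcx*, which encodes a microtubule-binding protein of immature neurons. These are 7 of the 25778 genes in the count table. They were chosen by name with earlier results of the same libraries in view, among them the counts of *Sox11* in 2 cell types, so their levels and ratios are given here as a description with no test. Single-cell RNA sequencing with the 10x Genomics droplet method was used at postnatal day 30 (P30) on the retina of 1 Ptbp1-Ctrl mouse, of genotype Chx10-Cre without a floxed *Ptbp1* allele, and on that of 1 Ptbp1-KO animal, of genotype Chx10-Cre;Ptbp1lox/lox. Both mice carry Chx10-Cre, which expresses Cre recombinase in retinal progenitors, so that the cells descending from them lose the promoter and first exon of *Ptbp1* where the allele is floxed. The comparison addresses whether retinal cells that lack *Ptbp1*, the gene of a splicing repressor that blocks neuronal exons, differ in neurogenic gene expression. There was 1 library per genotype, so every difference below compares these libraries and has no replicate check.

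During retinal development, proneural factors such as Neurog2 push cycling progenitors toward a neuronal fate, while Notch signaling acts through Hes repressors to hold them back. Hes6 belongs to the Hes family by sequence but counteracts Hes1, Insm1 is a zinc-finger repressor that acts as progenitors leave the cycle, and SoxC factors then turn on genes of early neurons, such as *Dcx*. Müller glia (MG) are the radial glia of the retina, formed late from the same progenitors, and proneural and SoxC factors are among the genes used to make glia produce neurons.

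All 7 genes were placed on mm10 with the GENCODE M21 annotation. *Sox4* (chr13:28948919-28953713), *Sox11* (chr12:27334264-27342574) and *Sox12* (chr2:152393611-152398063) lie on the minus strand, and the longest protein-coding transcript of each is a single exon. *Insm1* (chr2:146221921-146225020, plus strand) is also a single exon, *Neurog2* (chr3:127633135-127635631, plus strand) has 2 exons, *Hes6* (chr1:91411483-91414038, minus strand) has 4 and *Dcx* (chrX:143855842-143933311, minus strand) has 7. One annotated gene overlaps a member: *Gm26735*, a lincRNA on the strand opposite *Sox4*, which has no row of its own in the count table. Because the SoxC genes are close relatives, their transcripts were compared for stretches in which a read could belong to more than 1 of them. For *Sox4* and *Sox11*, a coding window of 150 bases is shown 5′ to 3′ on the coding strand, with capitals at positions where the bases of the pair differ. It lies in the part that encodes the HMG box by which these proteins bind DNA, and no in-frame coding window of this length was more alike. It spans chr13:28952659-28952808 in *Sox4* and chr12:27342076-27342225 in *Sox11*.
Sox4: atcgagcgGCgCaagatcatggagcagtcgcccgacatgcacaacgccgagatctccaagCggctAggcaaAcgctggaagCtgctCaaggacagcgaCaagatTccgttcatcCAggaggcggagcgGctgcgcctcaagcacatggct
Sox11: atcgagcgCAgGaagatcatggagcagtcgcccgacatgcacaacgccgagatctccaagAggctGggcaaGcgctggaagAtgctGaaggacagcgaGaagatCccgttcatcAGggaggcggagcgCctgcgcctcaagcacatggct
*Sox4* and *Sox11* were identical at 137 of the 150 positions (91.3%). Their longest run of identical bases anywhere in the whole transcripts was 48. In the last 1000 bases of each transcript, the end from which these libraries capture RNA, no pair of the 3 SoxC genes shared a run longer than 11 bases.

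The Ptbp1-Ctrl library held 16421 cells with 32758836 unique molecular identifiers (UMIs, each a captured RNA molecule), and the Ptbp1-KO library 14522 cells with 35328593 UMIs, of which the 7 genes gave 7816 UMIs over both. Cells of Ptbp1-KO were deeper, with a median of 4178 UMIs against 3333 in MG, 3818 against 2777 in bipolar cells (BC), 3928 against 2600.5 in amacrine cells (AC), 3179 against 2659.5 in cones and 1288 against 1088 in rods. Over all cells *Ptbp1* had 825 UMIs in the Ptbp1-Ctrl and 14 in the Ptbp1-KO library, and 294 and 6 in MG, as the labels would have it. The study describes female mice, whereas both libraries held transcripts of 4 Y-linked genes (16275 and 19242 UMIs summed) and almost no *Xist* (5 and 6 UMIs). A total of 63 cell barcodes occurred in both libraries. Those cells held no *Sox11* or *Dcx* UMI and at most 11 UMIs of any other member.

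Markers of each deposited cell type were highest in that type for rods, cones, BC, AC, MG, horizontal cells (HC) and retinal ganglion cells (RGC). RNA of rods was nevertheless counted in all types. The 6 rod markers summed to 16.0% (Ptbp1-Ctrl) and 13.9% (Ptbp1-KO) of their rod level in MG, 14.7% and 14.1% in BC, 16.8% and 17.5% in AC and 24.7% and 25.7% in cones. MG markers in rods stood at 0.861% and 0.779% of their MG level. To set each count beside this background, the level of the rod markers in a type was expressed as a percent of their level in the whole library (MG markers for rods), and the UMIs that a member would have at the same percent of its own library level are called the free RNA level below. Levels are UMIs per 1e+06 UMIs of the summed cells (CPM). They are compared within a gene only, since capture from the 3′ end differs between genes. All intervals are exact at 95% and cover counting error only.

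Each gene had its own distribution across cell types. *Sox4*, an activator of neuronal genes in young neurons, was high in AC, MG and BC and almost absent from photoreceptors. It had 124 UMIs in AC of Ptbp1-Ctrl and 290 in Ptbp1-KO, or 63.4 CPM (95% interval 52.7 to 75.6) and 75.2 CPM. In MG it had 313 and 298 UMIs, or 53.0 and 58.6 CPM, and in BC 422 and 471 UMIs, or 43.1 and 46.0 CPM. The level in rods was 2.45 and 3.38 CPM and in cones 4.58 and 3.51 CPM. The intervals of AC and MG, and of MG and BC, overlapped in Ptbp1-Ctrl and lay apart in Ptbp1-KO, whereas each of these 3 types stood apart from photoreceptors in both libraries. In MG the counts of 313 and 298 stood against free RNA levels of 52.6 and 44.3 UMIs, and in rods 32 and 49 stood against 16.5 and 23.3 UMIs. In cones the 8 and 5 *Sox4* UMIs lay below the free RNA levels of 24.0 and 22.9, so that there the rod markers overstated the background of this gene. With every cell thinned to 1000 UMIs, 4.21% of MG in Ptbp1-Ctrl and 4.60% in Ptbp1-KO held a *Sox4* UMI, as did 0.220% and 0.389% of rods. Before thinning, the MG shares were 13.9% and 17.3%.

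**Figure D1:**
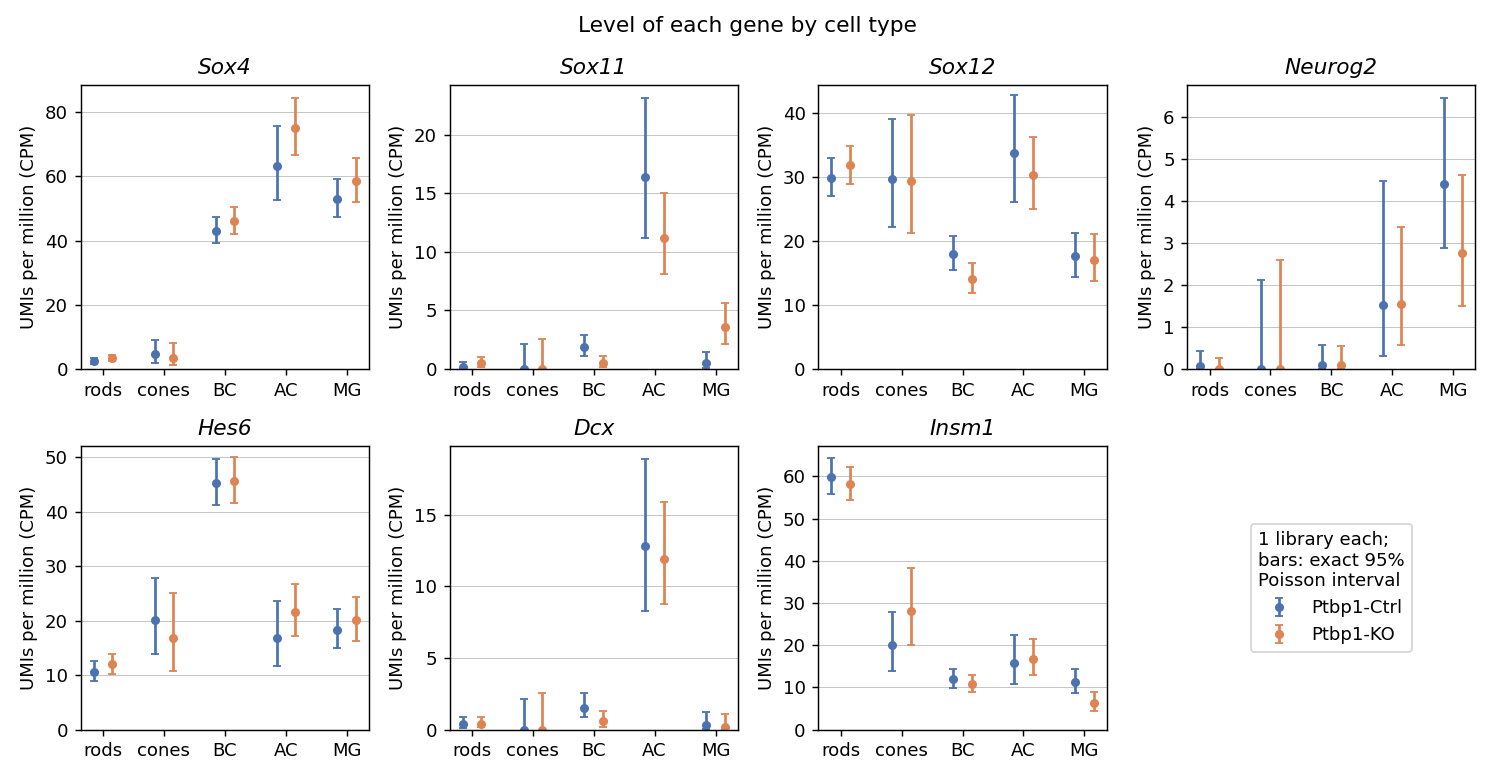
Level of each gene in the 5 large cell types, in CPM with exact 95% Poisson intervals, for the Ptbp1-Ctrl and the Ptbp1-KO library; each panel has its own scale from 0. Sox4 is low in photoreceptors, Hes6 is highest in BC and Insm1 in rods, and Sox11 in MG is at 0.508 against 3.54 CPM.

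*Sox12*, the third SoxC gene, was spread more evenly. It had 390 and 462 UMIs in rods (29.9 CPM in Ptbp1-Ctrl and 31.9 in Ptbp1-KO), 52 and 42 in cones (29.8 and 29.5 CPM) and 66 and 117 in AC (33.7 and 30.3 CPM). These 3 types had overlapping intervals in both libraries. BC, with 176 and 144 UMIs (18.0 and 14.1 CPM), and MG, with 104 and 87 (17.6 and 17.1 CPM), stood below them and overlapped with each other. Thinned to 1000 UMIs, 3.03% and 3.0% of rods held a *Sox12* UMI, against 1.98% and 1.11% of MG.

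*Sox11*, which in development overlaps with *Sox4* in young neurons, was in contrast highest in AC among the 5 large cell types. In AC it had 32 and 43 UMIs (Ptbp1-Ctrl and Ptbp1-KO), or 16.4 and 11.1 CPM, held by 30 of 676 and 34 of 945 cells. AC counts lay far over the free RNA level, which was 1.11 and 2.83 UMIs. Rods had 2 and 7 *Sox11* UMIs, and cones none in either library, where a count of 0 allows up to 1.72 and 2.10 CPM. RGC and HC were too few to be placed below AC. RGC had 0 and 2 UMIs, the latter 10.9 CPM, and HC none, which allows up to 27.1 and 70.0 CPM. Within AC the gene was uneven: the deposited clusters 6 and 14 had 24.7 and 16.4 CPM in Ptbp1-Ctrl, and cluster 15 had no UMI there and 5 UMIs (5.17 CPM) in Ptbp1-KO.

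The 3 *Sox11* UMIs in MG of Ptbp1-Ctrl stood against 18 in MG of Ptbp1-KO, or 0.508 and 3.54 CPM, with a log2 ratio of 2.80 (95% interval 1.02 to 5.21). In BC the order was the opposite, with 18 and 5 UMIs, or 1.84 and 0.488 CPM (log2 ratio -1.91, 95% interval -3.70 to -0.43). *Sox11* passed the minimum of 20 UMIs over both libraries in MG and in BC only through the library in which it was higher. The opposite ratios were part of what chose the gene, and whether MG and BC differ in it was not tested.

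The MG that held *Sox11* in Ptbp1-KO had MG markers no lower than those of other MG. Of the 18 UMIs, 17 were in cluster 4, the main MG cluster, and they were spread over 17 cells, 1 of which held more than 1 UMI. These 17 cells had a median of 5032 UMIs against 4171 in the other MG. Their 6 MG markers summed to 30978 CPM against 24679 in the other MG, and all 17 held MG markers. AC markers summed to 34.6 CPM against 32.0, BC markers to 104 against 442, rod markers to 3033 against 3675 and cone markers to 80.7 against 288. RGC and HC markers were higher in the 17 cells, at 57.7 CPM against 35.6 and at 23.1 against 9.20. An RGC marker was held by 23.5% of them against 11.9% of other MG, and an HC marker by 11.8% against 3.60%. The AC markers were at 20.3 and 32.1 CPM in all MG, none of the 6 at 0, which is 1.34% and 1.74% of their AC level, while *Sox11* stood at 3.11% and 31.8% of its own. The free RNA level was 3.18 UMIs in Ptbp1-Ctrl, where 3 were counted, and 2.97 in Ptbp1-KO, where 18 were counted. Among the 17 cells, 4 also held *Sox4*, 4 held *Hes6* and none held *Neurog2* or *Dcx*. Without the 5% of cells with most UMIs, which include MG of Ptbp1-Ctrl with *Sox11*, the ratio was 4.29, and in cluster 4 alone it was 3.26.

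At equal depth few of these UMIs remained. Before thinning, 0.174% of MG in Ptbp1-Ctrl and 1.44% in Ptbp1-KO held a *Sox11* UMI, against 0.0199% and 0.0645% of rods, whose median depth was 1088 and 1288 UMIs. Thinned to 1000 UMIs, none of 1663 MG of Ptbp1-Ctrl held one, which allows a share of up to 0.180%, and 3 of 1173 of Ptbp1-KO did (0.256%, 95% interval 0.0528 to 0.746). In rods the thinned counts were 0 of 5903, which allows up to 0.0508%, and 4 of 6175 (0.0648%). The MG share at this depth was not distinguishable between the libraries by its intervals.

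In BC, the *Sox11* UMIs of Ptbp1-Ctrl were scattered over 7 of the 10 BC clusters, with at most 5 in any of them. The count of 18 stood against a free RNA level of 4.85 UMIs in Ptbp1-Ctrl, and the 5 UMIs of Ptbp1-KO lay below its 6.05 UMIs. The ratio was -0.27 in cluster 5, the largest BC cluster, which held only 2 UMIs in each library.

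**Figure D2:**
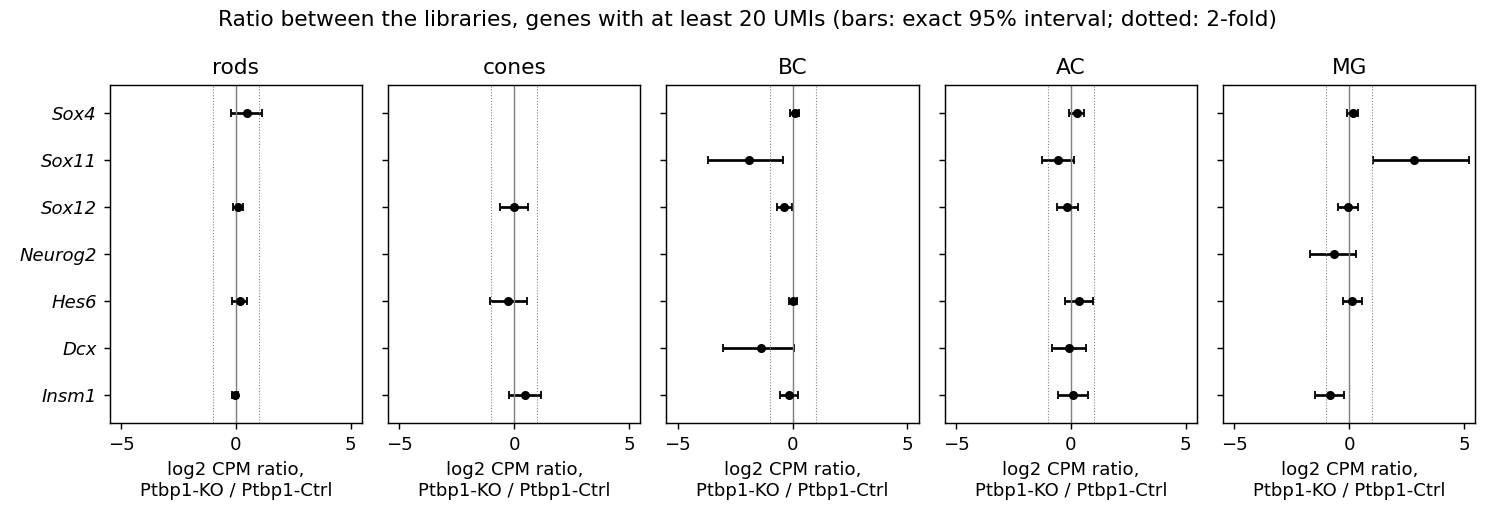
Log2 ratio of the Ptbp1-KO over the Ptbp1-Ctrl level (horizontal axis) for each gene with at least 20 UMIs over both libraries, by cell type; points are the ratio, bars the exact 95% interval and dotted lines 2-fold. Points lie within 2-fold except Sox11 in MG (2.80), Sox11 in BC (-1.91) and Dcx in BC (-1.39).

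*Neurog2*, the proneural factor, was rarely counted, and mostly in MG. There were 26 and 14 UMIs in MG, or 4.40 and 2.75 CPM, in 23 of 1720 and 14 of 1184 cells. The log2 ratio was -0.68 with an interval that spans 0 (-1.73 to 0.31). AC had 3 and 6 UMIs (1.53 and 1.56 CPM), BC 1 and 1, rods 1 and 0, and cones and HC none. The counts in MG stood against free RNA levels of 1.85 and 0.832 UMIs. Intervals of MG and AC overlapped in both libraries. MG with *Neurog2* were not distinct in depth, at a median of 3659 UMIs against 3318 for other MG in Ptbp1-Ctrl and 4259 against 4178 in Ptbp1-KO. Their MG markers summed to 21447 CPM against 23785 in Ptbp1-Ctrl and to 26738 against 24762 in Ptbp1-KO. Cone markers were at 1316 against 236 CPM in Ptbp1-Ctrl and at 32.8 against 287 in Ptbp1-KO. Rod markers were at 6475 against 4710 and at 1491 against 3690 CPM.

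*Hes6*, which relieves repression by Hes1, was a BC gene in both libraries. It had 443 and 468 UMIs in BC, or 45.3 (Ptbp1-Ctrl) and 45.7 CPM (Ptbp1-KO), whose intervals lay above those of all 4 other large types. In MG it had 108 and 102 UMIs (18.3 and 20.1 CPM), in AC 33 and 83 (16.9 and 21.5 CPM), in cones 35 and 24 (20.1 and 16.8 CPM) and in rods 139 and 174 (10.7 and 12 CPM). Levels in cones, MG and AC overlapped. HC, with 4 and 3 UMIs (36.1 and 70.0 CPM), and RGC, with 7 and 3 (32.9 and 16.3 CPM), were too few to be placed below BC. *Hes6* in MG was at 40.4% and 43.9% of its BC level, whereas the BC markers in MG were at 6.61% and 6.35% of theirs.

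*Insm1*, the zinc-finger repressor, was highest in rods, with 781 and 844 UMIs or 59.9 and 58.2 CPM, and a UMI in 7.21% and 8.12% of rods. Cones had 35 and 40 UMIs (20.1 and 28.1 CPM), AC 31 and 65 (15.8 and 16.9 CPM), BC 117 and 110 (12 and 10.7 CPM) and MG 67 and 32 (11.3 and 6.29 CPM). Outside rods the counts stood near the free RNA level in MG and BC, and further above it in AC and, in Ptbp1-KO, in cones. Cones had 35 counted against 27.3 UMIs in Ptbp1-Ctrl and 40 against 22.5 in Ptbp1-KO, and AC 31 against 20.9 and 65 against 41.5. BC had 117 counted against 91.5 UMIs in Ptbp1-Ctrl and 110 against 88.6 in Ptbp1-KO, and MG had 67 against 60.0 and 32 against 43.5. The lower MG level in Ptbp1-KO (log2 ratio -0.85, 95% interval -1.51 to -0.22) moved with the rod markers in MG, which were at 4738 and 3664 CPM. MG with an *Insm1* UMI held rod markers at 8465 CPM against 4594 in other MG of Ptbp1-Ctrl, and at 8968 against 3487 in Ptbp1-KO. Their part in the lower level was not tested. Thinned to 1000 UMIs per cell, the ratio was -0.04. Without the 5% deepest cells it was -1.12.

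*Dcx*, the microtubule protein of migrating neurons, was concentrated in HC. It had 54 UMIs in 16 of the 17 HC of Ptbp1-Ctrl and 16 UMIs in 6 of the 7 HC of Ptbp1-KO, or 487 and 373 CPM. AC had 25 and 46 UMIs (12.8 and 11.9 CPM), of which 23 and 43 fell in cluster 6. The deposited cluster 6 also holds HC and RGC. *Dcx* in AC was at 2.62% and 3.19% of its HC level, and the 4 HC markers in AC were at 1.89% and 3.20% of theirs. Most HC marker UMIs in AC were of *Calb1* (192 and 509), beside *Onecut1* (33 and 81), *Onecut2* (14 and 29) and *Lhx1* (2 and 4). Whether the *Calb1* UMIs came from HC or from AC themselves was not tested, so the sum does not measure HC RNA in AC. Of the 18 and 37 AC with a *Dcx* UMI, 2 and 6 held an HC marker and 16 and 32 an AC marker. The HC shares were 11.1% and 16.2%, against 20.4% and 29.4% of the other AC. By level, HC markers were at 195 CPM against 121 in Ptbp1-Ctrl and at 89.2 against 166 in Ptbp1-KO. An RGC marker was held by 4 and 8 (22.2% and 21.6%, against 12.2% and 11.1% of the other AC). RGC markers summed to 135 CPM against 67.7 in Ptbp1-Ctrl and to 236 against 49.0 in Ptbp1-KO. RGC had 2 and 2 UMIs, or 9.39 and 10.9 CPM (95% intervals 1.14 to 33.9 and 1.32 to 39.3), and were too few to be placed below AC. In rods, MG and cones *Dcx* was near the limit of detection, with 5 and 6 UMIs in rods, 2 and 1 in MG and none in cones. In BC it had 15 and 6 UMIs (log2 ratio -1.39, 95% interval -3.04 to 0.06), passing the minimum of 20 UMIs only through Ptbp1-Ctrl, against free RNA levels of 9.09 and 6.21 UMIs. In MG, 2 and 1 UMIs stood below the free RNA level of 5.96 and 3.05.

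**Figure D3:**
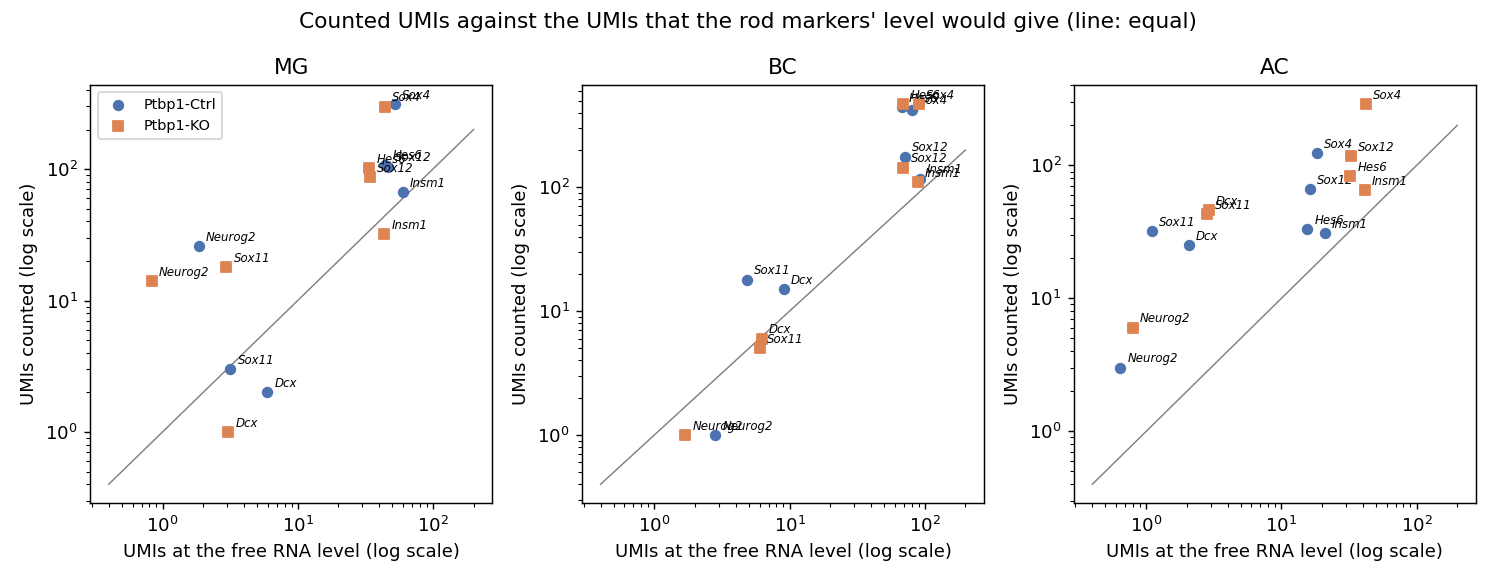
UMIs counted for each gene (vertical axis, log scale) against the UMIs it would have at the free RNA level (horizontal axis, log scale) in MG, BC and AC of each library; the line marks equal values. Sox4, Neurog2 and, in Ptbp1-KO, Sox11 (18 against 2.97 UMIs) lie above the line in MG, while Dcx in MG lies under it and Insm1 near it (67 against 60.0 and 32 against 43.5 UMIs).

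The BC divide into clusters that differ in type, and *Sox4* and *Hes6* differed among them in different ways. *Sox4* was at 109 CPM in cluster 12, 111 in cluster 13 and 109 in cluster 18 of Ptbp1-Ctrl, and at 118, 102 and 92.4 CPM in Ptbp1-KO. These 3 clusters gave 59.2% and 60.9% of all *Sox4* UMIs of BC from 24.3% and 25.9% of the cells. Cluster 18 had the highest *Grik1*, a glutamate receptor subunit of OFF bipolar cells, at 10235 and 10232 CPM, while clusters 12 and 13 had 19.9 to 113 CPM of it. At the other end, clusters 5 and 10 had the highest *Prkca*, the classical marker of rod bipolar cells, at 7011 and 6644 CPM and at 8030 and 8053 CPM. In cluster 5 *Sox4* had 9 and 24 UMIs (3.66 and 8.08 CPM), and in cluster 10 no UMI in either library, where a count of 0 allows up to 4.72 and 4.35 CPM. By CPM the *Prkca*-high clusters were therefore the BC with least *Sox4* in Ptbp1-Ctrl. Cluster 20 came next on few UMIs, and whether it stands apart from cluster 5 was not tested. The remaining clusters lay between, from 7.41 CPM (cluster 20) to 48.4 CPM (cluster 9) in Ptbp1-Ctrl. Cluster 5 was also where *Sox4* differed most between the libraries among clusters with at least 20 UMIs, with a log2 ratio of 1.14 whose interval reaches 0 (-0.01 to 2.43). In cluster 21, where the cone marker *Arr3* was at 3921 and 4030 CPM, *Sox4* had 20 and 32 UMIs and a ratio of 0.90 (0.05 to 1.79).

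*Hes6* did not share this order. It was at 54.9 and 52.5 CPM in the *Prkca*-high cluster 5, where *Sox4* was nearly missing, and at 28.7 and 29.5 CPM in cluster 12, where *Sox4* was high. Its lowest levels by CPM were in cluster 10 (15.7 and 21.8 CPM) and cluster 20 (14.8 and 6.15 CPM), the latter on few UMIs. Since clusters were formed from the same counts, these differences are descriptive. *Sox12* was at 8.76 to 29.9 CPM in every BC cluster, and in cluster 9 it had 40 and 15 UMIs (log2 ratio -1.29, 95% interval -2.25 to -0.40), while 4 of the other BC clusters were higher in Ptbp1-KO and 5 lower.

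**Figure D4:**
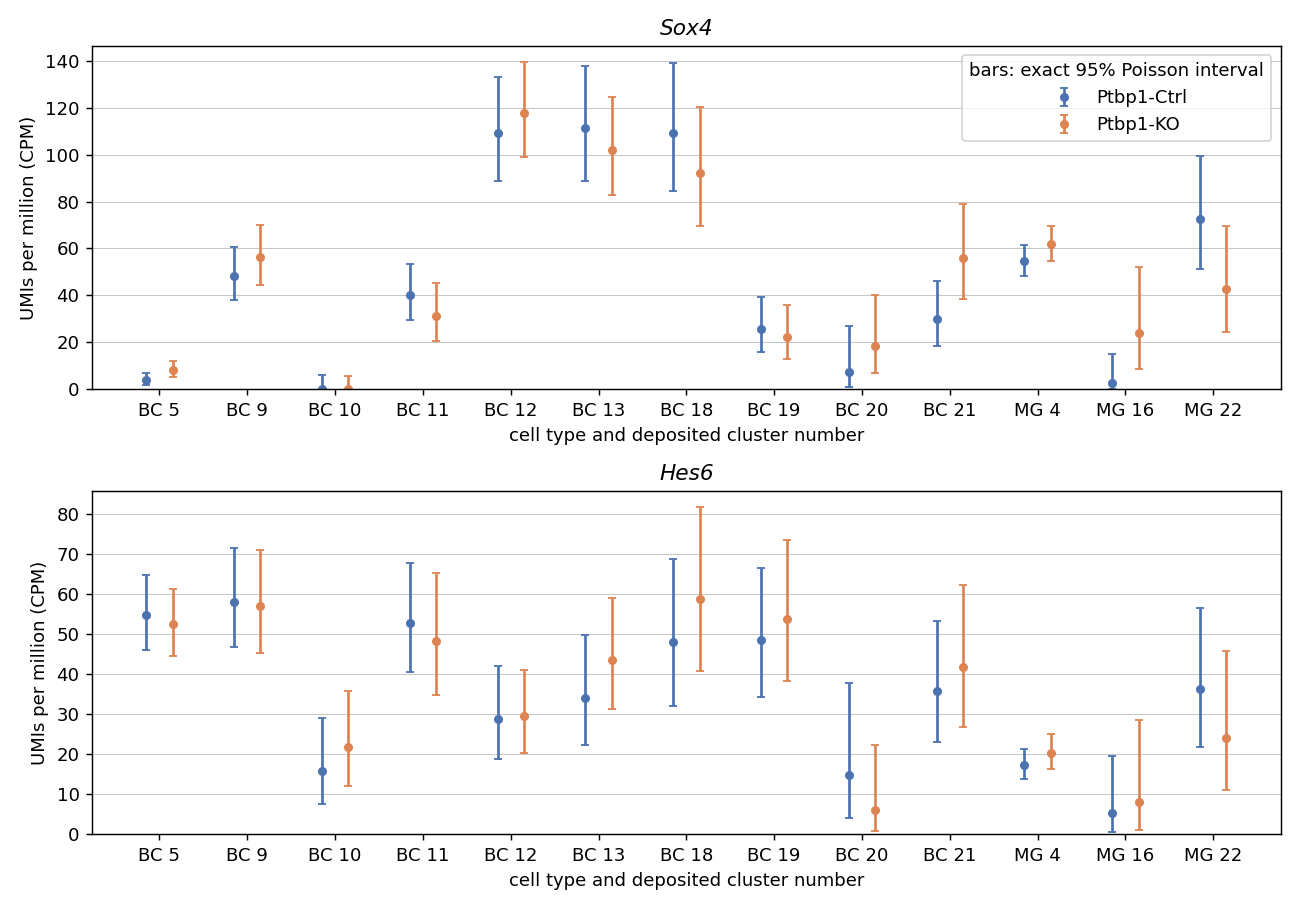
Level of Sox4 (top) and Hes6 (bottom) in the deposited clusters of BC and MG, in CPM with exact 95% Poisson intervals, for both libraries. Sox4 is above 90 CPM in BC clusters 12, 13 and 18 and under 10 CPM in clusters 5 and 10, while Hes6 is above 50 CPM in cluster 5.

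MG fell into 3 clusters. In cluster 4, with 1386 cells of Ptbp1-Ctrl and 994 of Ptbp1-KO, *Sox4* was at 54.7 and 61.9 CPM, *Hes6* at 17.4 and 20.4 CPM, *Sox12* at 17.2 and 18.6 CPM and *Neurog2* at 4.59 and 2.91 CPM. Cluster 16 was shallow, at a median of 1314 and 1715 UMIs, and held rod markers at 9641 and 6014 CPM. There *Sox4* had 1 and 6 UMIs and *Hes6* 2 and 2. Cluster 22 was deep, at 6076 and 7127 UMIs, held BC markers at 2834 and 3553 CPM, and had *Sox4* at 72.5 and 42.8 CPM and *Hes6* at 36.3 and 24.1 CPM. Doublets were not removed here, and their part in cluster 22 was not tested.

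Between the libraries, members lay on both sides of 0 in all 5 large cell types, though in cones none was higher in Ptbp1-KO after thinning. In MG, 6 of the 7 had at least 20 UMIs; 3 were higher in Ptbp1-KO and 3 lower, where 50.4% of 14016 genes were higher. Their median log2 ratio was 0.05 beside 0.00 over all genes. *Sox11* alone was past 2-fold, as were 3.99% of all genes in either direction and 2.43% in the higher direction. Among the 1514 genes with 20 to 40 UMIs in MG, a window set around the count of *Sox11*, 10.2% were at least 2-fold higher. *Sox4* (log2 ratio 0.14, -0.09 to 0.38), *Hes6* (0.13, -0.27 to 0.54) and *Sox12* (-0.04, -0.47 to 0.38) had intervals that span 0.

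In BC, 2 of 6 members were higher, where 53.5% of 15075 genes were, and the median was -0.25 beside 0.02 (0.03 after thinning to 1000 UMIs). *Sox4* (0.09, -0.10 to 0.29) and *Hes6* (0.01, -0.18 to 0.21) had the narrowest intervals, and *Hes6* turned to -0.02 with TMM scaling. *Sox12* was at -0.35 (-0.68 to -0.03) and *Insm1* at -0.15. The 2 members past 2-fold, *Sox11* and *Dcx*, were both lower in Ptbp1-KO. Over all BC genes 3.38% were past 2-fold in either direction and 1.15% in the lower direction, and among 1593 genes with 20 to 40 UMIs the lower share was 5.71%.

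AC had 3 members of 6 higher and 3 lower, with none past 2-fold, where 50.3% of 12999 genes were higher and 2.99% past 2-fold. *Hes6* was at 0.35 (-0.25 to 0.98), *Sox4* at 0.25 (-0.06 to 0.56), *Insm1* at 0.09, *Dcx* at -0.10, *Sox12* at -0.15 and *Sox11* at -0.55 (-1.25 to 0.15), a median of -0.01 beside 0.00. In rods, 3 of 4 members were higher, where 64.3% of 15213 genes were, and none was past 2-fold, where 6.45% were. The rod ratios were 0.46 for *Sox4*, 0.17 for *Hes6*, 0.09 for *Sox12* and -0.04 for *Insm1*, with a median of 0.13 beside 0.09. Median-of-ratios scaling lowered all rod ratios by 0.11, which put *Sox12* at -0.02. In cones, 1 of 3 members was higher, where 50.8% of 10294 genes were, and none was past 2-fold, where 3.56% were. *Insm1* was at 0.48 (-0.21 to 1.18) in cones, *Sox12* at -0.02 and *Hes6* at -0.25. RGC and HC were too few for ratios.

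More than 1 of the 7 genes was found in 3.37% and 5.32% of MG and in 5.62% and 11.3% of AC. A UMI of any member was found in 26.8% of MG in Ptbp1-Ctrl and 32.2% in Ptbp1-KO, 27.7% and 33.0% of BC, 31.8% and 41.3% of AC, 12% and 14.0% of rods and 16.9% and 20.7% of cones. Each of these 5 types was higher in Ptbp1-KO, which was also deeper in each. In the few HC both ran the other way, at 100% and 85.7% of cells and a median of 6837 and 5684 UMIs. No MG held more than 3 of the 7 genes.

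Other genes of neurogenesis were read from a list of 63 genes, 59 of which are in the table. In MG, 44 of them had at least 20 UMIs; 24 were higher in Ptbp1-KO and 20 lower, where 50.4% of all MG genes were higher. The 1 gene past 2-fold, where 3.99% of all genes were, was *Sox3*, a SoxB1 factor of progenitors, with 15 and 27 UMIs (log2 ratio 1.06, 95% interval 0.10 to 2.08). Among the bHLH factors, *Bhlhe22* was highest (50 and 74 UMIs, 0.78) and *Neurod4* lowest (245 and 157 UMIs, -0.43). Of the Notch pathway, 7 of 11 genes were higher, from *Notch3*, a Notch receptor (13 and 16 UMIs, 0.52), to *Hes5*, a Notch target (868 and 438 UMIs, or 147 and 86.1 CPM, -0.77, 95% interval -0.94 to -0.60). Of the regulators of neuronal genes, *Rest*, which represses them outside neurons, was at 0.13 and *Myt1*, a factor of neuronal differentiation, at -0.11. Immature neuron genes were split at 7 higher and 6 lower, between *Elavl4* (11 and 14 UMIs, 0.56), an RNA-binding protein of neurons, and *Stmn1*, a regulator of microtubules (2069 and 1254 UMIs, -0.51, 95% interval -0.61 to -0.40). Of the other Sox genes the lowest was *Sox9*, a factor of MG and progenitors (3442 and 2505 UMIs, -0.24), and of the cycle genes *Mcm2* was at 0.76 (13 and 19 UMIs) and *Ccnd1*, the progenitor cyclin, at -0.53 (240 and 143 UMIs). *Ccnd2*, another D-type cyclin, missed the minimum of 20 UMIs with 1 and 17 in MG (4.30, 95% interval 1.63 to 9.69).

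**Figure D5:**
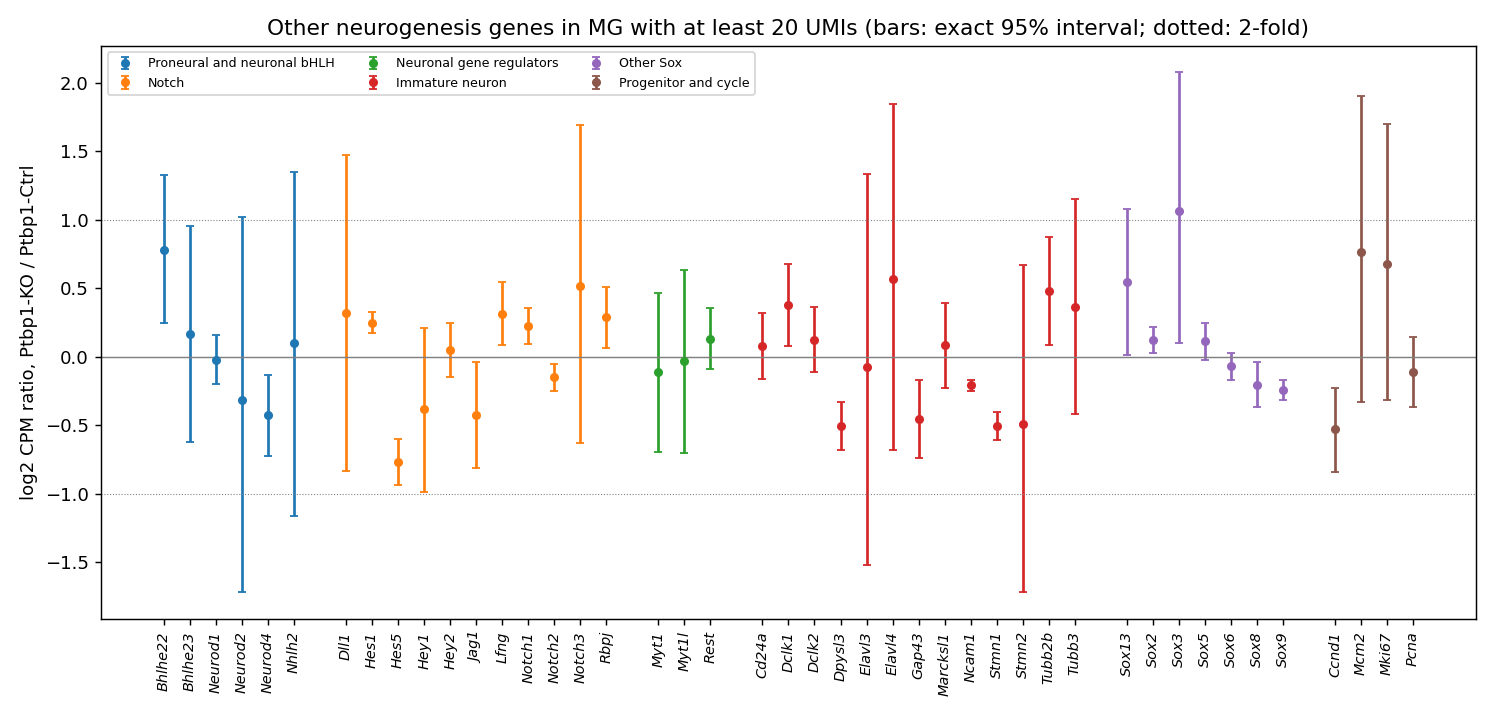
Log2 ratio of the Ptbp1-KO over the Ptbp1-Ctrl level in MG (vertical axis) for the 44 other neurogenesis genes with at least 20 UMIs, colored by group, with exact 95% intervals; dotted lines mark 2-fold. Ratios lie on both sides of 0 in each group, and Sox3 (1.06) is the gene past 2-fold.

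In the other types, at most 2 list genes were past 2-fold. In AC, 2 of 38 list genes were, beside 2.99% of all genes. *Dll3*, a Notch ligand-like inhibitor, had 3 and 18 UMIs (1.61, 95% interval -0.17 to 4.01) while *Hes5* had 19 and 13 (-1.53). MG markers in AC were likewise lower in Ptbp1-KO, at 927 and 713 CPM, and their part in the *Hes5* ratio was not tested. Of the immature neuron genes in AC, 11 were higher and 1 lower, with a median of 0.25, where 50.3% of all AC genes were higher. Each of the AC markers was also higher in AC of Ptbp1-KO, among them *Slc6a9* (610 and 653 CPM), *Gad1* (209 and 267) and *Tfap2b* (299 and 439). Whether the 2 shifts are linked was not tested. The Notch genes were 3 higher and 6 lower (median -0.42), the bHLH factors 3 and 4 (-0.03), the regulators of neuronal genes 0 and 3 (-0.11), the other Sox genes 1 and 3 (-0.30) and the cycle genes 2 and 1 (0.02). *Stmn1* had 397 and 1066 UMIs there (0.45, 95% interval 0.28 to 0.62), and the lower gene was *Ncam1*, an adhesion molecule, at -0.01, less than the 0.02 by which TMM factors raise AC ratios. In BC, 2 of 43 genes were past 2-fold, beside 3.38% of all genes. There *Elavl3*, an RNA-binding protein of neurons, had 23 and 50 UMIs (1.06) and *Nhlh2*, a neuronal bHLH factor, 16 and 34 (1.02). TMM factors lower BC ratios by 0.03, which puts *Nhlh2* under 2-fold. In rods, 2 of 39 genes were past 2-fold, beside 6.45% of all genes, and 27 were higher and 12 lower, where 64.3% of all genes were higher. *Elavl3* had 25 and 56 UMIs (1.01) and *Sox5*, a SoxD factor, 62 and 138 (1.0). TMM and median-of-ratios factors lower rod ratios by 0.09 and 0.11, and either puts both genes under 2-fold. The share of all genes past 2-fold was not recomputed with these factors. None of the 20 genes measured in cones was past 2-fold.

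For the 4 members with at least 500 UMIs, the genes most alike in pattern were sought among 11138 genes by Pearson's r of log2(CPM + 10) over 42 sums, 1 for each of 21 clusters in each library. These sums share depth and free RNA, so r is a description only. For *Sox4* they were *Lrrc4b* (r = 0.87), *Sh3bgrl3* (0.86) and *Clip3* (0.86), for *Hes6* *Nme1* (0.90), *Prxl2b* (0.90) and *Pja1* (0.88), and for *Insm1* *Mdm1* (0.90), *Rab28* (0.89) and *Wdr27* (0.89). *Sox12* had the least close partners, *Impa1* (0.77), *Zrsr2* (0.75) and *Mrpl32* (0.75).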

How the data were processed

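Droplet libraries (10x Genomics) were made by the authors, who aligned reads to mm10 with Cell Ranger 7.0.1 and filtered cells in Seurat 4 (above 200 and below 5000 genes, above 700 and below 10000 UMIs, under 20% mitochondrial). The deposited table held raw UMI counts of 25778 genes in 30943 cells, and the deposited cell table gave the percent of mitochondrial UMIs, 21 cluster numbers and 7 cell type names, used as deposited. The gene annotation used for counting and the use of intronic reads were not given in the sources used here. A further 2 per-cell columns were not used.

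Within each library and type, the UMIs of all cells were added up. CPM had exact Poisson intervals, log2 ratios exact conditional binomial intervals and shares of cells Clopper-Pearson intervals (SciPy 1.17.1, Python 3.11.15). Intervals and limits for a count of 0 (3 counts) cover counting error only. Cells of 1 mouse are not replicates, so no test was run. The interval was tested on simulated data. Ratios are read for genes with at least 20 UMIs over both libraries. Named genes were *Ptbp1*, the 7 members, list genes at least 2-fold apart in a type, the highest and lowest of each list group in MG, and the 3 genes most alike in pattern for members with at least 500 UMIs. BC cluster markers, single AC and HC markers, the Y genes, *Xist*, *Ccnd2*, *Ncam1* and *Gm26735* were named after their values were seen. Members and lists were chosen with earlier results of these data known. Alternatives were TMM factors (edgeR 4.0.16) and median-of-ratios size factors (DESeq2 1.42.0) in R 4.3.3, thinning to 1000 UMIs, leaving out the 5% deepest cells or cells with shared barcodes, the largest cluster alone, subtraction of free RNA, and other UMI filters. Doublets were not called.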

Additional observations from a re-analysis of the deposited data

Results flagged for a closer look

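*Sox11* stood out because its log2 ratio of Ptbp1-KO over Ptbp1-Ctrl was 2.80 in MG (3 and 18 UMIs) and -1.91 in BC (18 and 5 UMIs), past 2-fold in opposite directions. Whether MG and BC differ in this ratio was not tested: each genotype had 1 library, and the gene was chosen with this pattern known. In AC, where *Sox11* was highest among the 5 large types, the ratio was -0.55 (32 and 43 UMIs).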

How the results depend on the processing

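With 1 library per genotype, no library could be left out and the spread between mice is unknown. No paired analysis was possible because each group has 1 sample and no test was run. Depth limits *Sox11*, *Neurog2* and *Dcx* most, with at most 43, 26 and 46 UMIs in any large cell type and library. The number of members higher in Ptbp1-KO was 5 in place of 3 in rods without the UMI filter, 0 in place of 1 in cones after thinning, and 1 in place of 2 in BC with TMM factors, in the largest cluster or with free RNA subtracted. Smaller moves were 2 in place of 3 in rods with either scaling, 3 in place of 2 in BC after thinning, 4 in place of 3 in AC after thinning, in the largest cluster or without the UMI filter, and in MG 2 in place of 3 after thinning and 4 in the largest cluster. Medians stayed inside the counting intervals of their middle members, but the sign turned in BC (0.03) and MG (-0.04) after thinning, in MG without the UMI filter (-0.04), and in AC, where the median of -0.01 ran up to 0.24. The percent of all genes past 2-fold was 0.545 in rods, 0.450 in cones, 0.263 in BC, 0.155 in AC and 0.571 in MG at a mean of at least 50 CPM and 50 UMIs, and, in a window of 20 to 40 UMIs added after seeing the data, 24.3, 13.0, 17.6, 14.1 and 17.6.

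Of 168 single member ratios recomputed, 160 stayed inside the counting interval. The other 8 were *Sox4* (1.14), *Sox11* (-0.27) and *Insm1* (-0.91) in the largest BC cluster, *Insm1* in cones with free RNA subtracted (1.52), and, after thinning, *Insm1* in BC (0.54) and in MG (-0.04), *Sox12* in AC (0.67) and *Hes6* in MG (-0.35). Thinning leaves fewer UMIs by construction. The causes of the other differences were not tested. For *Sox11* in MG, thinning and subtraction left no UMI in Ptbp1-Ctrl, so no ratio could be had. In BC, subtraction left none in Ptbp1-KO. Thinning was drawn separately for shares of cells and for ratios, and left a *Sox11* UMI in 1 BC of Ptbp1-KO in the former and 0 in the latter.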
